A study of Anguilla anguilla with 15 samples.

Results

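Gonads of female European eels (Anguilla anguilla) from the Gironde, a site described as contaminated, were measured on 7 arrays. Each gonad was compared with a pool of gonads from wild eels of Certes, the site described as clean. The arrays are 7 of the 15 of the series, chosen by the collection site in their labels. The other 8 arrays hold Certes gonads set against the same pool. The pool was made from 30 wild Certes eels, 15 collected in 2011 and 15 in 2012, and the labels do not give the sex or stage of these fish. The title places the sampled animals in artificial gonad maturation, without a stage or a treatment for single eels. Site, maturation and rearing therefore cannot be told apart in the ratios of Gironde gonads to the pool alone. The Certes arrays share the pool, and comparisons between the sites are given below. The sampled cDNA carried Cy3 and the pool Cy5 on every array, with no dye swap, so a preference of one dye for a contig stays in every ratio. The gonads are called Gironde 1 to 7 in the order of their accessions. Each has its own code in the labels, which do not state that every gonad came from a different eel. The p-values therefore rest on the spread among the 7 arrays, part of which may be technical.

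The European eel leaves fresh water before its ovary has matured, and in captivity maturation is brought on by repeated hormone treatment. Growing oocytes take up vitellogenin, the yolk precursor made by the liver, while the follicle cells around them make sex steroids under pituitary control. The ovary therefore changes its cell composition and its transcripts together as it matures. In RNA of a whole gonad, fewer cells of a type and less RNA per cell cannot be told apart.

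The array carried 992 contigs, assembled transcript sequences known here by number alone. None of the 992 identifiers occurs in the table of 31451 eel genes used for names (0 matches), so no contig could be given a gene, a position in the genome or a sequence, and the tissue label was not checked against marker genes. A value is the authors' log ratio of sample to pool, with each array centred on its median contig, so 0 means the level of the median contig and not a measured equality with the pool. Each Gironde array gave a value for 953 to 988 contigs. Of the 992 contigs, 981 had a value in at least 5 of the 7 gonads and were tested, and the other 11 were not.

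Base 2 and the order sample over pool are not stated with the values and were taken as likely. The pool's own scanner signal bears on the order. With the order turned round, 17 contigs would need a sample signal above the scanner's top reading of 65535, by up to 46.02 times, before the centring of the arrays is taken into account. With the order used here, 0 contigs would, and the highest would reach 0.162 of that reading. If the order were turned round all the same, every "above" would become "below", with sizes, SDs and p-values as they are.

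Most contigs stood apart from the pool in Gironde gonads. Certes gonads also had many contigs away from it. Per array, 19.4% to 27.8% of contigs in Certes and 23.4% to 29.6% in Gironde were 2-fold or more above the pool. Below it the ranges were 18.0% to 25.7% and 18.9% to 29.4%. Between the sites, 1 of 992 contigs differed (limma, adjusted p under 0.05). The counts that follow are for Gironde against the pool and do not set it apart from Certes. Of the 981 contigs tested, 729 had a mean different from 0 (74.3%; limma on 7 arrays, Benjamini-Hochberg adjusted p under 0.05), 366 above the pool (37.3%) and 363 below it (37.0%). Without adjustment 750 passed. Small distances were common: 240 of those called had a mean within 2-fold of the pool, that is, under 1 on the log2 scale, and the smallest called mean was 0.28 in size. When a mean more than 2-fold from the pool was asked for (limma's treat, adjusted p under 0.05), 313 contigs passed (31.9%), 174 above (17.7%) and 139 below (14.2%). Contigs above and below were thus nearly equal in number, on arrays that had been centred on their median contig.

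The 7 gonads mostly took the same side of the pool. All values of a contig lay above 0 for 326 contigs and below 0 for 312, and 343 had values on both sides. Every gonad with a value stood 2-fold or more above the pool for 150 contigs and 2-fold or more below it for 109. At 4-fold these counts were 56 and 45. At 16-fold (4 on the log2 scale) they were 6 above and 20 below, the only one of these cuts with more contigs below. By the mean alone, 21 contigs lay 16-fold or more above the pool and 26 below it. Whether the sides differ was not tested. Means ran from -9.13 to 5.95 on the log2 scale, and 10 contigs lay 64-fold or more below the pool. Of the sum of squared log ratios, 10.3% lay around the contigs' own means and the rest in means that the 7 gonads shared.

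**Figure D1:**
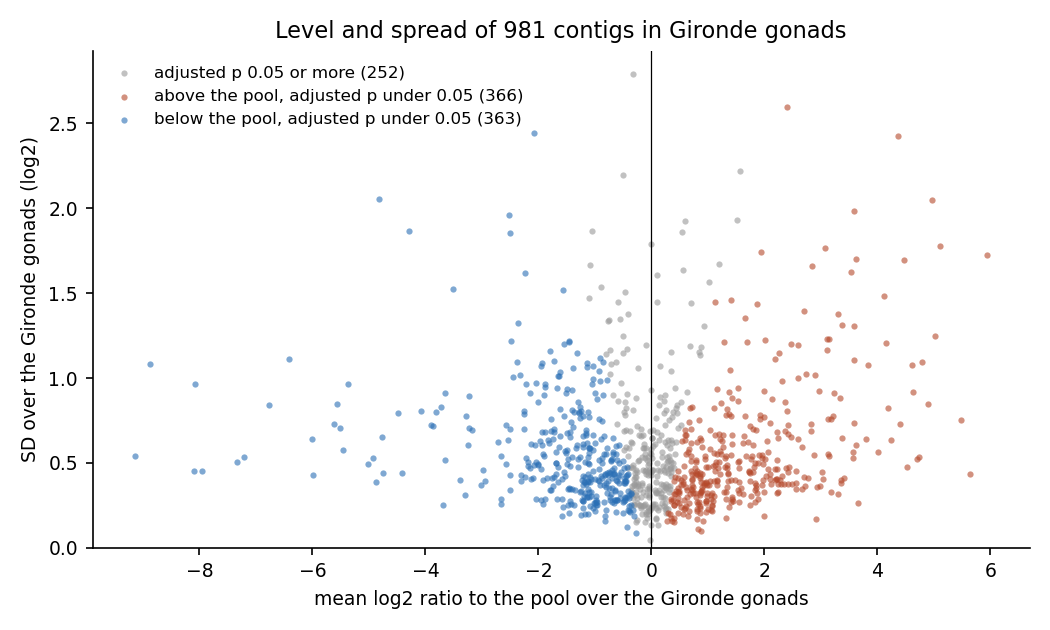
Each point is 1 of the 981 contigs tested, with its mean log2 ratio to the pool over the Gironde gonads on the x axis and its SD over the gonads on the y axis. Contigs past an adjusted p of 0.05 are coloured by side (366 above, 363 below); the means reach -9.13 below the pool and 5.95 above it, and SDs run from 0.048 to 2.79.

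A contig that was not called was usually held near the pool. Of the 252 contigs that were not called, 195 had a 95% interval of the mean that lay within 2-fold of the pool on both sides. For the other 57 the interval reached past 2-fold on at least 1 side.

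The contig farthest above the pool with a value in all gonads was contig_27016. Its log2 ratio was 4.93 in the lowest gonad, 5.88 in the median and 6.03 in the highest. All 7 gonads were high, in a range of about 1. Its mean of 5.65 ± 0.43 (SD, n = 7; SE 0.17) corresponds to a ratio of 50.2 (limma, adjusted p = 7.42e-09). In the pool the foreground of its spots was 1.06 times the local background, so the pool stood barely above background there and the size of the ratio is uncertain.

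Of the other contigs above the pool, contig_24382 had the smallest p, with a lowest, median and highest log2 ratio of 3.23, 3.74 and 3.92. No gonad came near 0. The mean was 3.65 ± 0.26 (SD, n = 7; SE 0.13), a ratio of 12.6 (limma, adjusted p = 2.65e-08). Its pool foreground was 1.37 times background.

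The contig farthest below the pool was contig_9635, with log2 ratios of -9.90 in the lowest gonad, -9.22 in the median and -8.16 in the highest. Every gonad was far below the pool. The mean was -9.13 ± 0.54 (SD, n = 7; SE 0.19; limma, adjusted p = 9.67e-10). The pool was bright here, at 14.8 times background. A net pool signal of 5364 and this ratio would leave 9.54 units for a gonad before centring, where the local background of the pool channel had medians of 174 to 1279 over the slides. The contig was thus low in all 7 gonads, and how low was not resolved.

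The second below the pool, by its p, was contig_2266, for which the lowest, median and highest log2 ratio were -8.68, -8.14 and -7.34. It too was low in every gonad, with a mean of -8.09 ± 0.46 (SD, n = 7; SE 0.17; limma, adjusted p = 9.67e-10) and a pool foreground of 22.5 times background. The same limit holds for its size, as 30.7 units would be left for a gonad.

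These 4 contigs lay on the same side of the pool in Certes gonads, which share that pool. There the means were 5.01 ± 0.45 (SD, n = 8) for contig_27016 and 3.58 ± 0.30 for contig_24382. They were -8.31 ± 0.56 for contig_9635 and -7.58 ± 0.56 for contig_2266. The differences, Gironde minus Certes, were 0.63 ± 0.23 (SE), 0.07 ± 0.17, -0.82 ± 0.27 and -0.51 ± 0.26 in the same order. In limma on all 15 arrays, where 1 of 992 contigs passed (0.101%), the adjusted p-values were 0.354, 0.927, 0.354 and 0.525.

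**Figure D2:**
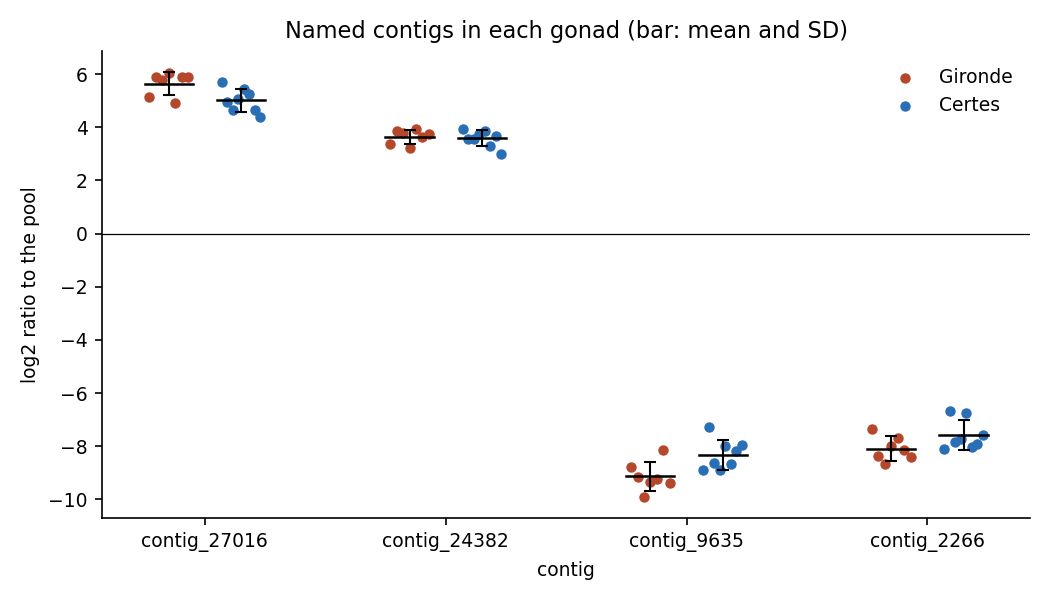
Log2 ratio to the pool of 4 contigs in each gonad, with Gironde (n = 7) and Certes (n = 8) side by side and bars for mean and SD. All gonads of both sites lie above 3 for the first 2 contigs and below -6 for the last 2, and the sites overlap for each contig.

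The side on which a contig fell went with its brightness in the pool, measured as foreground over local background in the pool channel (median over 15 slides, 3 spots per contig). In the dimmest quartile of contigs this ratio had a median of 1.08, and 117 contigs were called above the pool and 50 below. In the next quartiles the counts were 137 and 59 (median ratio 1.23), then 94 and 92 (1.58). In the brightest quartile, at a median of 3.74, 18 were above and 162 below. Contigs tested numbered 237 in the dimmest quartile and 248 in each of the others. From dimmest to brightest, 70, 52, 62 and 68 of them were not called. Beyond 2-fold, by treat, the dimmest quartile held 78 above and 22 below, and the brightest 4 and 65. Across the 981 contigs Spearman's rho of pool brightness and mean was -0.42, and both measures contain the pool's signal. When contigs brighter in the pool than the median contig were fitted alone, 115 were above the pool and 263 below. The nearly even split of all contigs is thus a sum of unlike quartiles, and how much of it comes from the weakness of the pool signal was not tested.

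**Figure D3:**
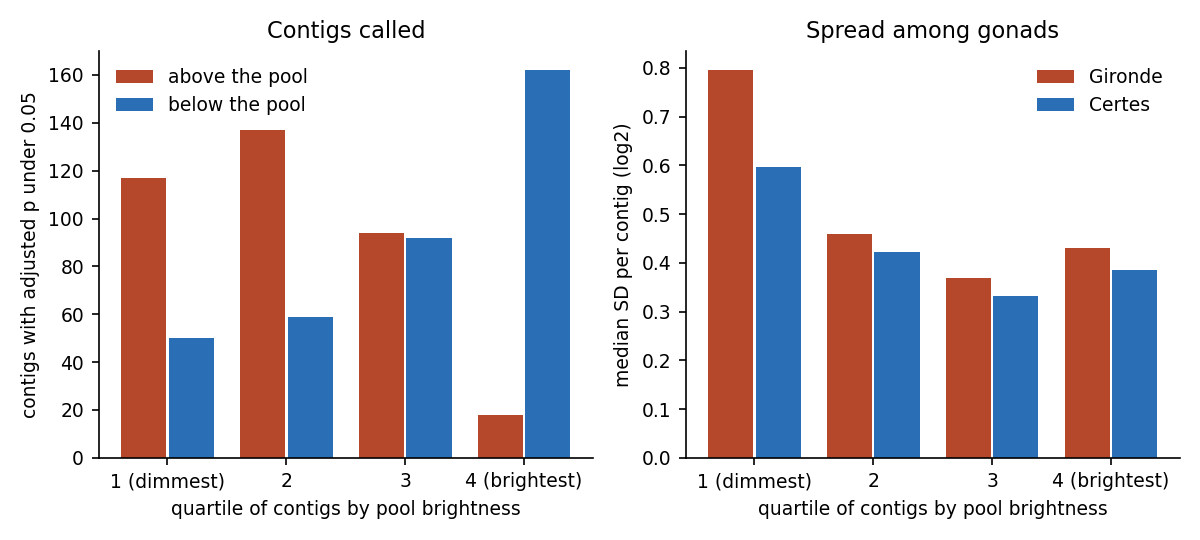
Left, the number of contigs past an adjusted p of 0.05 above and below the pool in each quartile of contigs by pool brightness. Right, the median SD per contig over 7 Gironde and 8 Certes gonads; called contigs go from 117 above and 50 below in the dimmest quartile to 18 and 162 in the brightest, and the Gironde SD is 0.795 in the dimmest quartile and 0.37 to 0.459 in the others.

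How far the 7 gonads varied around their mean differed much between contigs. The SD of a contig over the gonads had a median of 0.47 on the log2 scale, with quartiles of 0.34 and 0.70, and ran from 0.048 to 2.79. The median range from the lowest to the highest gonad was 1.36. An SD over 1 was found for 114 contigs, 81 of them in the dimmest quartile of the pool. The median SD was 0.80 in that quartile and 0.46, 0.37 and 0.43 in the next 3. The dimmest quartile thus held most of the contigs with an SD over 1, though not all, and the median SD did not fall steadily with brightness. No gonad was hybridised more than once, so animals and arrays cannot be told apart in these SDs.

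Spread was also larger far from the pool than near it, on both sides. The median SD was 0.41 for the 274 contigs with a mean within 0.5 of the pool. It was 0.64 for the 118 with a mean over 2, and 0.63 for the 86 at -2 or below. Above the pool the rise was not steady, with 0.40 for the 107 contigs with a mean of 0.5 to 1. Among contigs above the median pool brightness both ends again exceeded the middle, with 0.33 near the pool (167 contigs), 0.41 far above it (19 contigs) and 0.53 far below it (58 contigs).

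The steadiest contig was contig_25585, chosen here for its SD of 0.048 (n = 7), with values from -0.10 to 0.05. The most variable one, contig_24286, was likewise chosen after its values were seen. It was at 3.17 in Gironde 2, 1.56 in Gironde 3 and 1.04 in Gironde 1, and at -0.80, -2.70 and -4.25 in Gironde 5, 4 and 7, with no value in Gironde 6. Gonads thus lay on both sides of the pool (mean -0.33 ± 2.79, SD, n = 6; limma, adjusted p = 0.75). Its pool foreground was 1.02 times background. Certes gonads lay on both sides of the pool as well, between -3.90 and 1.02 (-0.43 ± 1.94, SD, n = 7). The difference in means, Gironde minus Certes, was 0.10 ± 1.15 (SE; limma, adjusted p = 0.999).

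Outside the dimmest quartile, the widest spread among contigs with all values and away from the stretches of the spot list described below belonged to contig_20405, also singled out after its values were seen. Its log2 ratio was 7.66 in Gironde 6 and 6.69 in Gironde 1, between 4.59 and 5.15 in Gironde 2, 3, 5 and 7, and 1.14 in Gironde 4. All gonads were above the pool, by unlike amounts (4.96 ± 2.05, SD, n = 7; limma, adjusted p = 7.29e-05). The pool foreground of this contig was 1.33 times background, so the size of its ratios is uncertain. The 8 Certes gonads lay between 6.48 and 7.30 (6.84 ± 0.30, SD, n = 8). The difference in means, Gironde minus Certes, was -1.88 ± 0.65 (SE) and did not pass (limma, adjusted p = 0.354), and the difference in spread was not tested.

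Single gonads sometimes left the others far behind. Each value was set against the median of the other Gironde gonads, and 145 of 6795 values lay 4-fold or more away, 84 of them high and 61 low. Of the high ones 74 were in the dimmest quartile of the pool, and of the low ones 34. High values were most frequent in Gironde 4 and 6, with 24 and 22 contigs against 7 to 9 in the other gonads. Low values were most frequent in Gironde 2, with 23, and there were 0 in Gironde 6. The gonads with many high values were also those with the most empty cells, 39 and 27 of the 107 in Gironde, where the other 5 had 4 to 17. Whether empty cells and high values have 1 source was not tested.

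Per array, 2.14% ± 0.91 (SD, n = 7) of the contigs of a Gironde gonad lay 4-fold or more from the other gonads of its site, between 0.92% and 3.37%. In Certes it was 0.644% ± 0.350 (SD, n = 8), between 0.101% and 1.21%. The sites overlapped, with Gironde 7 inside the Certes range. The difference was 1.496 percentage points (two-sided exact permutation p = 0.000311 over 6435 splits, 0.00124 after Benjamini-Hochberg adjustment over 4 comparisons of the sites). Each percentage was computed once within its own site, and Gironde values were set against fewer other gonads than Certes values. Where cells were empty, that number was lower still. The permutation p is therefore approximate. Without the dimmest quartile of contigs the difference was 0.41 points and did not pass (exact permutation p = 0.109). Gironde arrays also had more empty cells, 107 against 14 in Certes. Of those 107, 105 were in the dimmest quartile. Whether empty cells bear on the difference between the sites was not tested.

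Spread in the middle of the contigs was also compared between the sites. The median SD per contig was 0.456 in Gironde and 0.408 in Certes over the 921 contigs measured on each of the 15 arrays. The difference of 0.047 did not pass (two-sided exact permutation p = 0.248, also 0.248 adjusted), although the SD was larger in Gironde for 621 of the 981 contigs. In the dimmest quartile the median SD was 0.795 in Gironde and 0.597 in Certes. In the next quartiles it was 0.459, 0.370 and 0.430 in Gironde and 0.423, 0.331 and 0.385 in Certes.

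The part of the array away from the pool was also set against Certes. At 2-fold or more above the pool stood 26.7% ± 2.2 (SD, n = 7) of the contigs of a Gironde gonad, with a lowest of 23.4% and a highest of 29.6%, and 23.9% ± 2.6 (SD, n = 8) in Certes. The exact permutation p of 0.0440 was 0.088 after adjustment, so the difference of 2.82 points did not pass. Below the pool the shares were 24.7% ± 4.0 and 21.98% ± 2.8, a difference of 2.71 points (exact permutation p = 0.148, 0.197 adjusted). After the median absolute deviation of every array was set equal, the differences were -0.091 and -0.024 points. Such scaling removes a difference in width by construction, so it does not bear on whether the sites differ. Gironde 7 and 2 had the most contigs above the pool, and Gironde 2 and 7 the most below it.

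**Figure D4:**
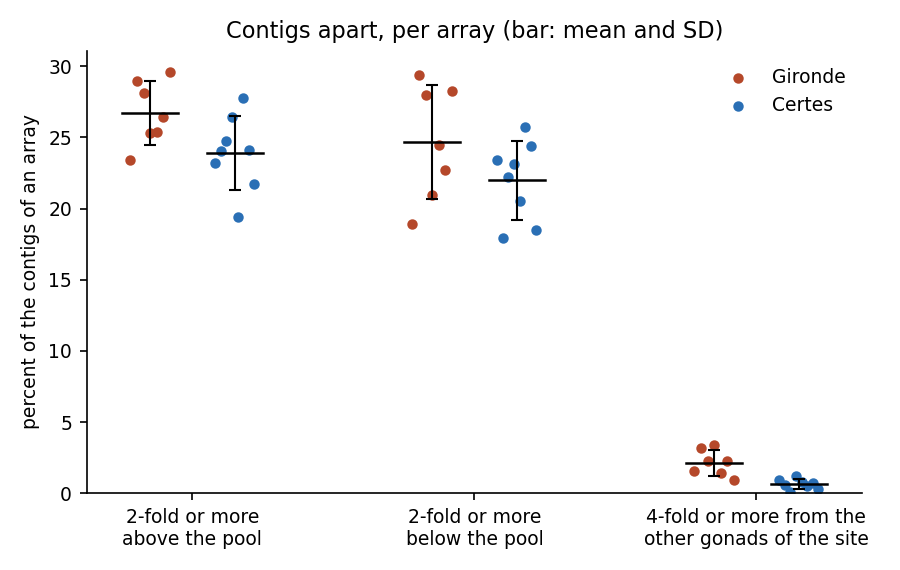
Percent of an array's contigs at least 2-fold above the pool, at least 2-fold below it, and at least 4-fold from the median of the other gonads of the same site, with 1 point per array and bars for mean and SD (Gironde n = 7, Certes n = 8). The sites overlap in all 3 measures, and the third lies between 0.92% and 3.37% in Gironde and between 0.101% and 1.21% in Certes.

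After each contig's mean was taken off, the first principal component of the 923 contigs with 7 values held 29.9% of the squared deviations and the second 18.25%. On the first, Gironde 2 and 3 lay at one end, with loadings of 0.61 and 0.36, and Gironde 4, 6 and 1 at the other, with -0.44, -0.43 and -0.30. Gironde 7 and 5 were at 0.18 and 0.02. Between pairs of gonads, r across contigs, which are not replicates, was highest for Gironde 5 and 7 at 0.932 and lowest for Gironde 2 and 6 at 0.864.

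The loading was set against the width of an array, taken as the slope of its log ratios on the mean of the other 6 gonads, which ran from 0.878 in Gironde 1 to 1.10 in Gironde 2. Over the 7 gonads Pearson's r was 0.75 (exact permutation p = 0.0569) and Spearman's rho 0.68 (exact permutation p = 0.110). Loading and slope were computed from the same log ratios, which these p-values do not take into account. Without Gironde 1 and 2, the gonads farthest from the median slope, r was 0.52. Against the number of empty cells, r was -0.65 (exact permutation p = 0.118) and rho -0.64 (exact permutation p = 0.139), and r was 0.070 without Gironde 4 and 6. Of these 2 relations neither passed, with adjusted p-values of 0.114 and 0.118 for r and 0.139 and 0.139 for rho, and 7 samples limit what could be seen.

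Most of the deepest single losses lay close together in the deposited spot list. A stricter rule took contigs on which 1 gonad lay 8-fold or more from the median of the others while the others spanned no more than 4-fold (2 on the log2 scale). It gave 23 contigs in Gironde, 12 with a high gonad and 11 with a low one. All 12 high ones were in the dimmest quartile of the pool, and 2 of the low ones. Of the 11 low ones, 6 were low in Gironde 3 and 4 in Gironde 5. The remaining contig, contig_17613, was at -7.89 in Gironde 1, a departure of -4.16. It lay at position 348 of the list, away from the others.

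The 6 contigs of Gironde 3 lay between positions 729 and 744 of the 992 in the list. On those 16 positions Gironde 3 had a value for 13 contigs and none for 3, and 11 of the 13 were at least 2-fold below the median of the other gonads. The median departure was -2.71 on the log2 scale, down to -6.67, against -0.0036 over the rest of the array. In the other 6 gonads the median size of a departure on the same contigs was 0.36, and 1 of 96 cells was empty. The stretch was thus low in 1 gonad alone among the 7. The deepest was contig_6064, at -3.38 in Gironde 3 and between 2.67 and 4.18 in the other gonads. The second was contig_26012, at -3.43 against 2.05 to 2.84. On contig_26012 Certes 1 was low too, at -1.34 against 1.34 to 2.48 in the other Certes gonads. In the pool, the 11 low contigs stood at 1.05 to 39.01 times background. The 3 without a value in Gironde 3 and the 2 that were not low there were among the dimmest of the stretch, at 1.04 to 1.08 times background.

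The 4 contigs of Gironde 5 lay between positions 681 and 686, and all 6 contigs on these positions were at least 2-fold below the other gonads, by a median of -3.83. In the other 6 gonads the median size of a departure there was 0.19. Certes 1 was low on the same 6 positions, by a median of -3.37, with 5 of the 6 at least 2-fold below the other Certes gonads. An example is contig_17499, at -3.82 in Gironde 5 and -3.53 in Certes 1, and between -0.47 and 0.58 in the other 13 arrays. contig_19308 was at -3.87 and -3.06 in these arrays, and contig_35165 at -3.06 and -3.00. Their other Gironde gonads lay between -0.16 and 0.06 and between 0.54 and 1.52.

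**Figure D5:**
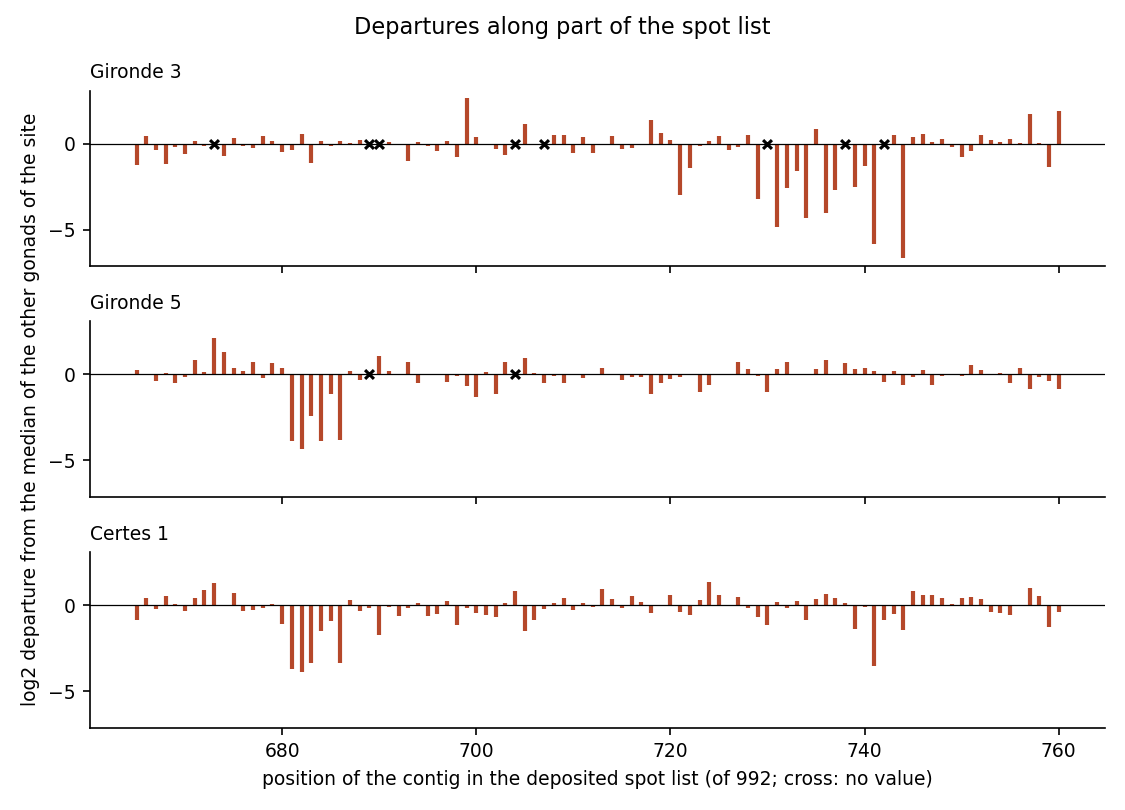
Log2 departure of Gironde 3, Gironde 5 and Certes 1 from the median of the other gonads of their site, by position of the contig in the deposited spot list, with crosses for contigs without a value. Gironde 3 is at least 2-fold low on 11 of the 16 positions from 729 to 744, down to -6.67. It is also at -2.98 at position 721, outside that stretch. Gironde 5 and Certes 1 are both low from 681 to 686. Certes 1 is also at -3.55 at position 741.

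Whether list position follows position on the slide is not given in the sources used here, and why neighbouring contigs were low together was not tested. The spots of these contigs in the sample channel were not looked at. The slide numbers of the scanner table match no sample label, and matching slides to arrays by their values was not tried. Of the 22 contigs on the stretches, 9 were called against the pool with these values and 15 without them. Among all 981 contigs tested, 74.3% were called. The stretches were picked for values far from the other gonads. Smaller SDs and p-values without those values were thus made likely by the choice. The SD of contig_26012, for example, went from 2.22 to 0.28. The mean of contig_26012 went from 1.57 (limma, adjusted p = 0.0610) to 2.40 (limma, adjusted p = 1.27e-06), and that of contig_2179 from 0.55 (adjusted p = 0.405) to 1.24 (adjusted p = 7.96e-05). Over the whole array the count of contigs called went from 729 to 736. For single contigs 1 gonad could thus decide the call. The stretches hold only 22 of the 981 contigs, so the count over the whole array could not move far. With each Gironde array left out in turn, 684 to 723 contigs were called.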

How the data were processed

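The deposited values are log ratios of sample and reference, 1 per contig and array, read here as log2 of sample over reference. Image analysis, filters, treatment of the 3 spots, log base and direction were not stated. The median of each array in the deposited table was 0, so the authors had centred the arrays. Foreground and background intensity of 15 slides, as deposited by the authors, were used for the reference channel only, as the median of 3 spots per contig and then of 15 slides. The other 30 columns, of the sample channel, match no sample label and were not used. Contigs with 5 or more values in the 7 Gironde arrays were tested against 0 with limma 3.58.1 (R 4.3.3; lmFit, eBayes, treat), adjusted by Benjamini-Hochberg over 981 contigs. The sites were compared per contig by limma on 15 arrays. The test against 0 leaves out the pool's own spread. Values per array were compared between sites with exact permutation tests (Python 3.11.15, numpy 2.4.6, scipy 1.17.1). In each direction 2 contigs were named: the one with the mean farthest from 0 and the one with the smallest p among the others, called and with 7 values. Alternatives changed the scale, centring, filter, threshold, log base and variance model, left out each array in turn, or kept contigs bright in the pool. Gene lists could not be applied to contigs without names. The samples, comparisons and lists were chosen with earlier results of these data known. The comparisons of departures, of median SD between sites and along the spot list were added after the values were seen. The number of arrays limits the precision.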

Additional observations from a re-analysis of the deposited data

Results flagged for a closer look

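Arrays far from the rest of their site were looked for in 21 sets of values (per-array measures and the 4 contigs chosen by rule), and none was found (0 sets); chance marks about 1 in 20. Among 5 contigs taken from the stretches of the spot list because 1 gonad was low, 9 of 10 sets held such an array, which their choice made likely. In contig_6064 it was Gironde 3 at -3.38, where the others reached down to 2.67. In contig_26012 it was Gironde 3 at -3.43 and, in Certes, Certes 1 at -1.34 against 1.34 to 2.48. In contig_35165 it was Gironde 5 at -3.06 and Certes 1 at -3.00. In contig_17499 it was Gironde 5 at -3.82 and Certes 1 at -3.53, and in contig_19308 Gironde 5 at -3.87 and Certes 1 at -3.06.

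In a comparison added after the values were seen, the sites differed in the share of an array's contigs that lay 4-fold or more from the other gonads of the site, by 1.496 percentage points (approximate, exact permutation p = 0.000311, 0.00124 adjusted over 4 comparisons). The difference did not pass outside the dimmest quartile of contigs (0.408 points, exact permutation p = 0.109) or among contigs above the median pool brightness (0.465 points, exact permutation p = 0.0931). All 7 Gironde gonads but Gironde 7 stood above the highest Certes array. Empty cells also differed between the sites, with 107 in Gironde and 14 in Certes.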

How the results depend on the processing

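No paired analysis was possible because the labels give the gonads codes of their own and no number shared between sites. The 729 contigs apart from the pool were 627 to 741 under the other settings not limited by pool brightness, 684 to 723 without 1 array and 378 (115 above, 263 below) among contigs above the median pool brightness, which holds fewer contigs. The 313 contigs beyond 2-fold were 284 to 312 without 1 array, 133 (35 above, 98 below) among the brighter contigs and 431 (223 above, 208 below) with the values read as natural logs. The 4 named contigs kept their side and their call in the 23 values computed for them under another scale, centring or choice of values and without each array in turn, where their choice by size and p made this likely; other variance models and array weights were not run for single contigs. The median SD of 0.474 was 0.683 with the values read as natural logs and 0.457 to 0.482 without 1 gonad. The share of the first component, 29.9%, was 33.9% and 28.1% after the arrays' median absolute deviation or SD was made equal, 41.6% among the brighter contigs, 32.5% without the stretches of the spot list, and 29.1% to 34.02% without 1 gonad, where fewer components share the total. The Gironde excess of contigs 2-fold above the pool, 2.82 points, was -0.091 and 0.582 with these scalings (exact permutation p = 0.878 and 0.432), 2.42 with natural logs (p = 0.0620), 2.13 at 4-fold (p = 0.0636) and 2.18 to 3.38 without 1 array, with an exact permutation p over 0.05 in 10 of these 15 fits. Scaling arrays to equal width removes a difference in width by construction. The excess below the pool, 2.71 points, was 3.11 at 4-fold (exact permutation p = 0.0172) and 1.92 to 3.67 without 1 array, past 0.05 only without Gironde 1. The excess in departures, 1.496 points, was 1.05 and 0.919 with the scalings, 1.34 without the stretches and 1.28 to 1.91 without 1 array, all with an exact permutation p of 0.0274 or lower. It was 0.465 among the brighter contigs and 0.408 outside the dimmest quartile (exact permutation p = 0.0931 and 0.109). The difference in median SD was 0.029 to 0.066 without 1 array and passed in 0 of these fits.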
